A study of Rattus rattus with 10 samples.

Results

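Testes taken 12 h after a single dose of gamendazole or lonidamine were set against vehicle testes, by whole-testis RNA on Affymetrix rat expression arrays. Of the 10 arrays of the series, 2 form the treated group, 1 with gamendazole at 6 mg/kg and 1 with lonidamine at 25 mg/kg, and 4 form the vehicle group, 1 each at 0, 4, 12 and 24 h. All animals were adult male Long-Evans rats, 60 days old, dosed once by intraperitoneal injection, and vehicle animals received buffered DMSO. The other 4 arrays hold both drugs at 4 h and at 24 h and enter only the comparisons between hours. Each array is the only one of its treatment and hour, and the labels give neither the number of animals behind it nor whether RNA was pooled. The spread in the comparison of both drugs with vehicle therefore holds the difference between the drugs, the differences between vehicle hours and any technical spread.

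Gamendazole and lonidamine are indazole carboxylic acids that detach immature sperm cells from the Sertoli cells, the nurse cells that form the wall of the seminiferous tubule and, through their junctions, the blood-testis barrier. Germ cells are held by actin-rich junctions that use cadherins, nectins and an integrin-laminin pair, and proteases, their inhibitors and cytokines such as interleukin 1 are known to regulate the opening of these junctions. Between the tubules lie Leydig cells, which make testosterone under luteinising hormone, and resident macrophages, whose cytokines are known to lower Leydig cell steroid synthesis.

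Signals are linear array units, scaled by the authors' software to a common trimmed mean, and they are comparable for 1 probe set across arrays but not between genes. Log2 signals correlated at r of 0.963 to 0.965 between the gamendazole array and the vehicle arrays, at 0.973 to 0.976 between the lonidamine array and the vehicle arrays, and at 0.978 to 0.981 among vehicle arrays. RNA integrity was read from the beta-actin control probe sets, whose 3' signal over 5' signal was 1.95 on the gamendazole array, 1.92 on the lonidamine array and 1.92 to 2.0 on vehicle arrays. The same ratio for GAPDH was 0.804 with gamendazole, above the vehicle range of 0.732 to 0.795, and 0.723 with lonidamine, below it; the part of this difference in the results was not tested. The arrays carried the markers of testis: the protamine Prm1 of elongating spermatids had signals of 56104.9 with gamendazole, 51088.1 with lonidamine and 52779.1 to 56394.8 with vehicle. By the instrument records, both 12 h drug arrays and the 12 h vehicle array were hybridised in run 2, the 0 and 4 h vehicle arrays in run 1 and the 24 h vehicle array in run 3.

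At 12 h the treated testes showed higher transcripts of cytokines, their receptors, NF-kB and early response genes, some higher protease and adhesion transcripts, and a smaller set of lowered transcripts that included the Leydig cell genes Cyp17a1, Cyp11a1 and Lhcgr. Of 17549 tested probe sets, 998 (5.69%) passed an adjusted p of 0.05 (limma, Benjamini-Hochberg). Of these, 769 (4.38%) were higher and 229 (1.3%) were lower, with median log2 differences of 0.97 and -0.63. By gene, taking the brightest probe set of each, 489 of 10508 tested genes (4.65%) rose and 173 (1.65%) fell, and the median gene differed by -0.03. At least 2-fold differences were seen for 368 of the higher and 63 of the lower probe sets.

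Of the 769 higher probe sets, 768 had both drug arrays above all 4 vehicle arrays, as did 15.2% of all tested probe sets, and all 229 lower ones had both below, as did 14.5%. The count depended on the gamendazole array: the lonidamine array alone gave 163 higher (0.929%) and 29 lower (0.165%), while the gamendazole array alone gave 809 higher and 503 lower. With the hybridisation run as a block, which leaves the vehicle 12 h array as the only direct comparison, 68 (0.387%) were higher and 3 (0.0171%) lower, out of 1994 at an unadjusted p under 0.05. On both drug arrays all 769 lay above and all 229 below the vehicle 12 h array, which is part of the mean they were chosen against, so this is a description.

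**Figure D1:**
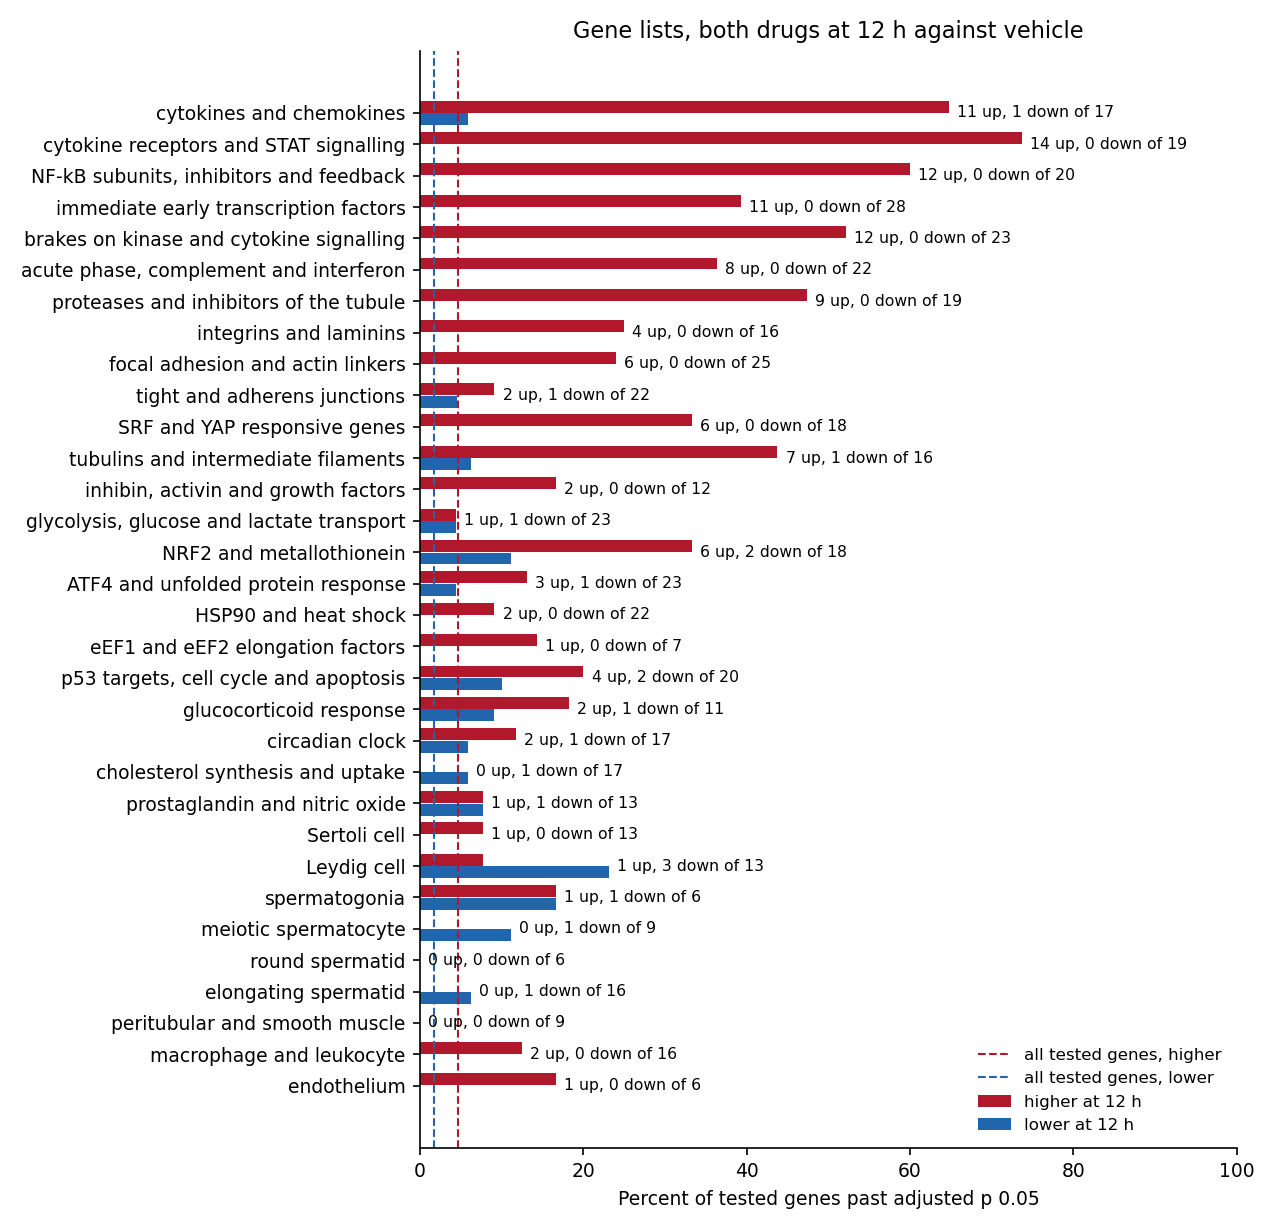
Bars give the percent of tested genes in each list that were higher (red) or lower (blue) at 12 h, with counts beside them; dashed lines mark 4.65% and 1.65%, the shares of all 10508 tested genes. The cytokine receptor list has the highest share, 14 of 19 genes higher, and the Leydig cell list has the most lower, 3 of 13. The lists were chosen with earlier results of these data known, so the shares are a description. Genes dim on all vehicle arrays were tested only if drug arrays were bright, so some shares are partly set by that rule.

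Cytokines and chemokines, the secreted signals that recruit and activate leukocytes, held the largest rises. Ccl2, the monocyte chemokine, had signals of 2656.4 with gamendazole and 1435.3 with lonidamine, against 52.2, 5.4, 20.9 and 5.7 on the vehicle arrays at 0, 4, 12 and 24 h. Both drug arrays lay far above every vehicle array, and Ccl2 rose at least 48.3-fold (log2 5.59 ± 0.30 standard error, adjusted p = 4.6e-06). A bound is given because vehicle signals under 37.1 were set to that floor.

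Cxcl1, a neutrophil chemokine, had 1016.3 and 1993.5 with gamendazole and lonidamine, against 3.1, 2.7, 3.6 and 5.7 with vehicle, and rose at least 38.4-fold (log2 5.26 ± 0.31, adjusted p = 6.49e-06). Ccl20, which draws dendritic and T cells through Ccr6, had 1136.3 and 1148.1 with the drugs, against 9.6 to 12.7 with vehicle. Its drug arrays were nearly equal, and it rose at least 30.8-fold (log2 4.94 ± 0.27, adjusted p = 4.6e-06). The monocyte chemokine Ccl7 had 805.5 and 594.9 with gamendazole and lonidamine, against 5.4 to 11.3 with vehicle, and rose at least 18.7-fold. For Cxcl1, Ccl20 and Ccl7 all 4 vehicle arrays were set to the floor. Their standard errors and adjusted p therefore hold no spread between vehicle arrays.

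The interferon-induced chemokines Cxcl11 and Cxcl10, ligands of Cxcr3, also rose, Cxcl11 by at least 18.1-fold and Cxcl10 by 12.5-fold (log2 4.18 ± 0.34 and 3.64 ± 0.31). Cx3cl1, the membrane-bound chemokine fractalkine, had 570.4 and 559.6 with the drugs, against 26.2 to 123.7 with vehicle. Of the interleukin 1 family, Il1a had 976.3 with gamendazole and 1441.1 with lonidamine, against 154.6, 139.5, 103.8 and 101.0 with vehicle. That is a 9.67-fold rise with no overlap (log2 3.27 ± 0.24, adjusted p = 2.44e-05), and a second probe set of Il1a rose as well, by log2 3.03.

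Il33, an interleukin 1 family alarmin, rose 5.26-fold (log2 2.40 ± 0.36), while its other probe set differed by 1.37 and did not pass. Il1b had 167.9 and 135.4 with gamendazole and lonidamine, against 59.4, 7.5, 59.8 and 60.9 with vehicle. Both drug arrays were higher than all vehicle arrays, but the log2 difference of 1.5 ± 0.41 did not pass (adjusted p = 0.0562). Il6 rose at least 3.5-fold with an adjusted p of 0.0408, a call that was lost in 11 of 16 alternatives (adjusted p = 0.382 with the run as a block). Tnf, Cxcl2 and the interleukin 1 receptor antagonist gene Il1rn were too dim on most arrays to be tested.

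In the list of cytokines and chemokines 17 of 29 genes could be tested. Of these 11 rose (64.7%) and 1 fell (5.88%), beside 4.65% and 1.65% of all tested genes. The median log2 difference was 2.40, beside -0.03 for all tested genes. Genes such as Ccl2, Cxcl1, Ccl20, Ccl7, Cxcl11 and Il1b had every vehicle signal under 116.2, the level needed for testing. Drug arrays alone brought them in. Genes as dim that did not rise were left out, so this share and median are partly set by the filter. The gene that fell was Cxcl12, a homeostatic chemokine that retains stem cells: it had 312.3 and 365.7 with gamendazole and lonidamine, against 541.4 to 653.7 with vehicle (log2 -0.81 ± 0.14, adjusted p = 0.00536). Of its 2 other probe sets, which did not pass, 1 differed by -1.40 and 1 by 0.18. With the run as a block 8 of the 17 were higher and 0 lower.

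**Figure D2:**
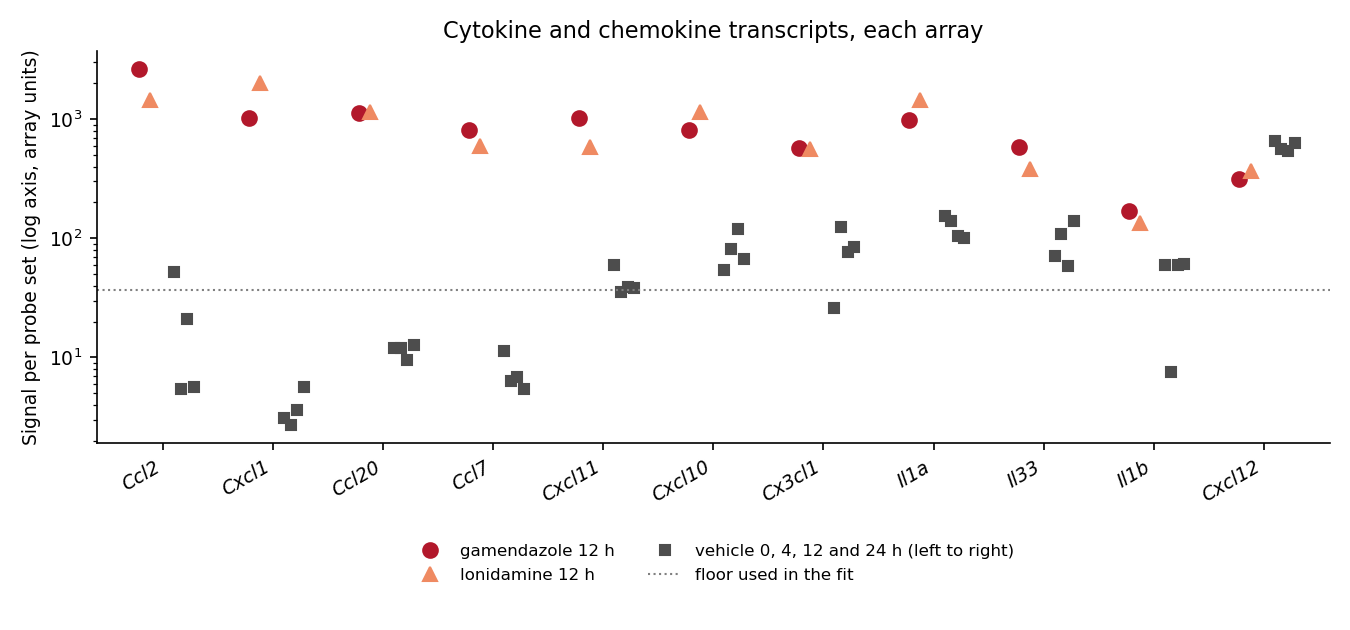
Signal of each array on a log axis for 11 cytokine and chemokine genes: gamendazole 12 h (red circles), lonidamine 12 h (orange triangles) and the 4 vehicle arrays (grey squares, 0, 4, 12 and 24 h from left to right); the dotted line is the floor of 37.1. Both drug arrays lie above all vehicle arrays for every gene shown except Cxcl12, where both lie below.

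Receptors for these signals and the JAK-STAT pathway behind them rose as well: 14 of 19 tested genes (73.7%) rose and 0 fell, with a median of 1.97. Among all tested genes 4.65% rose and 1.65% fell. As all lists were chosen with earlier results of these data known, such counts are a description. Here too, Tnfrsf12a had every vehicle signal under 116.2 and was tested only through drug arrays. The same holds for Ripk2, Atf3, Testin, Adamts1, Ccn1, Fst and Bhlhe40 of the lists below. Shares and medians of lists with such genes are therefore partly set by the filter. Tnfrsf12a, the receptor of the cytokine TWEAK, had 2292.4 with gamendazole and 786.3 with lonidamine, against 93.4, 100.6, 65.4 and 47.3 with vehicle. It rose 18.3-fold with no overlap (log2 4.19 ± 0.41, adjusted p = 0.000132). Il1r1, the signalling receptor of interleukin 1, had 1018.9 and 586.5 with the drugs, against 67.3 to 174.0 with vehicle, a 6.61-fold rise. Il1r2, the decoy receptor, rose at least 5.01-fold.

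The interleukin 6 axis was represented by Il6r, up 8.19-fold (log2 3.03 ± 0.28), and by Il6st, the shared receptor chain gp130, up 2.98-fold with all 4 of its probe sets passing. The kinase Jak2 rose 3.91-fold and the transcription factor Stat3 4.46-fold. Stat3 had 1091.4 with gamendazole and 1215.2 with lonidamine, against 282.4, 330.6, 197.7 and 241.4 with vehicle (log2 2.16 ± 0.19, adjusted p = 8.96e-05). Tnfrsf1a, the main receptor of TNF, rose 5.98-fold, and Irf1, an interferon-regulated transcription factor, 4.24-fold.

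Cebpd, a transcription factor of the acute phase response, rose 7.03-fold, while its relative Cebpb, at 1.78 ± 0.51, missed the threshold (adjusted p = 0.0658). Cxcr4, the receptor of Cxcl12, differed by -1.11 ± 0.38 at its brightest probe set and did not pass (adjusted p = 0.122). Another probe set of Cxcr4 passed at -1.17. In this list 8 genes were higher with the lonidamine array alone, and 6 with the run as a block.

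NF-kB is the transcription factor that interleukin 1 and TNF receptors activate, and several of its targets encode its own inhibitors. Of 20 tested genes of the NF-kB list 12 rose (60%) and 0 fell (median 1.25), beside 4.65% and 1.65% of all tested genes. These values are partly set by the filter, since Ripk2 was tested only through drug arrays. Ripk2, a kinase upstream of NF-kB, had 1429.3 and 1382.6 with gamendazole and lonidamine, against 53.9, 82.0, 90.4 and 97.6 with vehicle, a 17.8-fold rise with the drug arrays nearly equal (log2 4.15 ± 0.25, adjusted p = 6.49e-06). The subunits Nfkb1, Nfkb2 and Relb rose 5.22-fold, 4.87-fold and 2.90-fold. The subunit Rela, whose activity is set mainly by release from its inhibitor, had 840.8 and 926.0 with the drugs, against 632.3 to 898.0 with vehicle. These groups overlap, and it did not pass (log2 0.30 ± 0.15, adjusted p = 0.281).

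Inhibitors of the pathway rose together with the subunits: Nfkbia 2.34-fold and the ubiquitin-editing enzyme Tnfaip3 3.67-fold. Nfkbiz, a nuclear cofactor, rose at least 9.83-fold. Icam1, the endothelial and Sertoli cell adhesion molecule for leukocytes, rose 6.75-fold and Vcam1 1.89-fold. The mitochondrial superoxide dismutase Sod2, a classical NF-kB target, rose 2.40-fold. With the lonidamine array alone 6 genes of this list were higher, and with the run as a block 2, Ripk2 and Icam1.

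Immediate early genes, which are transcribed without new protein synthesis, were still raised at 12 h: 11 of 28 tested (39.3%) rose and 0 fell (median 0.62). Among all tested genes 4.65% rose and 1.65% fell. Egr1, a zinc finger factor, had 969.5 with gamendazole and 1804.4 with lonidamine, against 171.2, 157.1, 144.3 and 136.9 with vehicle. It rose 8.71-fold without overlap (log2 3.12 ± 0.23, adjusted p = 2.74e-05). The AP-1 subunit Fos rose at least 11.6-fold (log2 3.54 ± 0.39), and its partners Jun and Junb rose 2.61-fold and 3.83-fold.

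Ier3, a stress-induced survival gene, rose 9.48-fold and the stress factor Atf3 at least 7.18-fold. Klf6 rose 3.05-fold, whereas Klf4, which is bright in testis, differed by 0.03 ± 0.09 with overlapping groups. With the lonidamine array alone 5 genes of this list were higher, and with the run as a block 4.

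Of 23 tested genes that act as brakes on kinase and cytokine signalling, 12 (52.2%) rose and 0 fell (median 1.08). Among all tested genes 4.65% rose and 1.65% fell. Zfp36, which destabilises cytokine mRNAs, had 773.7 and 1027.8 with gamendazole and lonidamine, against 161.1 to 189.3 with vehicle (5.09-fold, log2 2.35 ± 0.18, adjusted p = 3.22e-05). Dusp1 and Dusp5, phosphatases of MAP kinases, rose 2.63-fold and at least 5.04-fold. Socs3, the feedback inhibitor of Stat3 signalling, rose 3.30-fold, Gadd45b at least 7.59-fold and Ppp1r15a, which restarts translation after stress, 4.79-fold. With the lonidamine array alone 5 were higher, and with the run as a block 2.

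Acute phase proteins are secreted mainly by liver in inflammation, and some are made by Sertoli cells. Of 22 tested genes of the acute phase, complement and interferon list 8 (36.4%) rose and 0 fell (median 0.72). Among all tested genes 4.65% rose and 1.65% fell. Hpx, the haem-binding protein hemopexin, had 3350.5 with gamendazole and 1280.9 with lonidamine, against 120.7, 162.8, 116.1 and 153.9 with vehicle. It rose 15.1-fold without overlap (log2 3.92 ± 0.31, adjusted p = 3.96e-05). Gbp2, an interferon-induced GTPase, had 3641.7 and 1135.1 with gamendazole and lonidamine, against 135.1 to 193.5 with vehicle, and rose 12.4-fold. Gbp7 of the same family rose 11.5-fold.

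Serpina3n, a protease inhibitor, rose at least 7.28-fold, ceruloplasmin (Cp), the copper carrier, 2.31-fold and the broad protease inhibitor A2m 1.62-fold. Tap1, of the peptide loading complex of MHC class I, rose 3.38-fold. With the lonidamine array alone 2 of the 22 were higher, as with the run as a block.

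Leukocyte markers were measured beside these genes. Of 16 tested macrophage and leukocyte genes 2 rose (12.5%, beside 4.65% of all tested genes) and 0 fell (median 0.48). These were the Fc receptor Fcgr2b, by 3.84-fold, and the mannose receptor Mrc1, by 1.31-fold. The summed signal of the list was 15880 with gamendazole and 14320 with lonidamine, against 12840 to 13780 with vehicle. Of the 16, 8 had both drug arrays above all vehicle arrays and 1 had both below, beside 15.2% and 14.5% of all tested probe sets. Among the 8, C1qa had 417.2 and 398.3 with gamendazole and lonidamine, against 212.2 to 306.3 with vehicle. Cd163 had 226.4 and 191.8, against 130.3 to 166.4. Neither C1qa nor Cd163 passed (limma, adjusted p = 0.0733 and 0.225). The common leukocyte antigen Ptprc had 78.6 and 75.6 with the drugs, against 28.5 to 96.7 with vehicle. The macrophage marker Cd68 had 91.0 and 89.9, against 80.3 to 130.4. Ptprc and Cd68 did not pass either.

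Of the neutrophil list only Lcn2 and S100a9 could be tested, and S100a9 rose at least 5.44-fold (370.9 and 143.4 with gamendazole and lonidamine, against 1.0 to 53.7 with vehicle). S100a8 and Itgam were too dim to be tested. Under the run block 0 genes of the macrophage and neutrophil lists passed (limma). The beta-globin gene Hbb of red cells had 5548.7 with gamendazole and 3076.2 with lonidamine, against 1986.3 to 3193.9 with vehicle, and the erythrocyte list had 0 of 3 tested genes passing. What part these cells have in the cytokine and acute phase values was not tested. In whole tissue, a change in the number of cells of a type and a change in RNA per cell cannot be told apart.

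The next groups are those of the tubule itself. Proteases and their inhibitors, by which Sertoli cells remodel junctions and basement membrane, had 9 of 19 tested genes (47.4%) rise and 0 fall (median 0.70). Among all tested genes 4.65% rose and 1.65% fell. Testin, a secreted protein that accumulates at Sertoli-germ cell contacts as they open, had 1263.4 with gamendazole and 261.9 with lonidamine, against 53.9, 74.7, 71.9 and 36.4 with vehicle. It rose at least 10.1-fold (log2 3.33 ± 0.53, adjusted p = 0.00339), and both drug arrays were above all vehicle arrays, with gamendazole much the higher.

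Timp1, an inhibitor of matrix metalloproteinases, had 8535.9 and 2589.5 with gamendazole and lonidamine, against 406.0 to 751.6 with vehicle, and rose 8.15-fold (log2 3.03 ± 0.36). Ctsl, the lysosomal protease cathepsin L that Sertoli cells secrete in quantity, had 9742.9 and 6069.8, against 3402.1 to 3798.9 with vehicle, and rose 2.11-fold. Tissue plasminogen activator (Plat) rose 4.53-fold and the matrix protease Adamts1 at least 7.09-fold. Mmp14 and Timp3 rose 1.91-fold each. With the run as a block 1 gene of this list, Plat, was higher.

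Integrins and laminins, the anchors of Sertoli cells to basement membrane and of spermatids to Sertoli cells, had 4 of 16 tested genes rise and 0 fall, with a median of 0.16. That is 25% higher, beside 4.65% of all tested genes. The 4 were the integrin subunits Itga6, Itgav and Itgb1 and the laminin chain Lamc1. Itga6 had 962.1 with gamendazole and 1124.1 with lonidamine, against 128.6, 288.9, 171.8 and 193.8 with vehicle (5.54-fold, log2 2.47 ± 0.26, adjusted p = 0.000268). Its 2 other probe sets also passed, at 1.5 and 2.04. Itgb1, the beta chain that pairs with both alpha chains, had 3598.4 and 2490.3, against 636.9 to 983.5 with vehicle, and rose 3.72-fold. With the run as a block only Itgb1 of this list was higher.

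Focal adhesion and actin linker genes had smaller differences: 6 of 25 tested (24%) rose and 0 fell (median 0.45), beside 4.65% and 1.65% of all tested genes. Among them Zyx, of actin-based junctions, rose 1.74-fold (1405.3 and 1500.5 with gamendazole and lonidamine, against 809.2 to 873.6 with vehicle), vinculin (Vcl) 1.65-fold and the tropomyosin Tpm4 2.89-fold. Of 18 tested genes that respond to SRF and YAP, the transcription factors that read actin tension, 6 (33.3%) rose and 0 fell (median 0.81). The matricellular genes Ccn1 and Ccn2 rose at least 5.12-fold and 1.99-fold. With the lonidamine array alone 1 gene of each of these lists was higher, and with the run as a block 0 of either (limma).

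Of 22 tested genes of tight and adherens junctions, which form the barrier, 2 rose (9.09%) and 1 fell (4.55%), with a median of 0.06; among all tested genes 4.65% rose and 1.65% fell. N-cadherin (Cdh2), the adhesion molecule between Sertoli and germ cells, had 702.2 and 565.8 with gamendazole and lonidamine, against 182.2, 215.7, 171.9 and 217.7 with vehicle, a 3.22-fold rise without overlap (log2 1.69 ± 0.18, adjusted p = 0.000294). Its partner beta-catenin (Ctnnb1) rose 1.28-fold. Cdh2 was the 1 gene of this list that stayed past the threshold with the run as a block.

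The gap junction protein connexin 43 (Gja1) had 1370.0 with gamendazole and 2728.5 with lonidamine, against 3701.1, 2977.3, 3141.6 and 3359.2 with vehicle. It fell by 0.76 on the log2 scale (adjusted p = 0.0469), and its other probe set, at -0.56, did not pass. The Gja1 call was lost in 12 of 18 alternatives, with log2 differences from -1.26 to -0.27. Occludin (Ocln) had 102.8 with gamendazole and 292.6 with lonidamine, against 246.1 to 301.4 with vehicle, so that only the gamendazole array was low, and it did not pass (adjusted p = 0.283). For the tight junction gene Cldn11 the difference of 0.26 ± 0.07 missed the threshold (adjusted p = 0.0554). Tjp1, the scaffold ZO-1, differed by 0.05 ± 0.09 and Nectin2 by 0.26 ± 0.14, and neither passed.

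Of 16 tested tubulin and intermediate filament genes 7 (43.8%) rose and 1 (6.25%) fell (median 0.38). Among all tested genes 4.65% rose and 1.65% fell. The beta-tubulin Tubb6 had 1080.7 and 386.0 with gamendazole and lonidamine, against 124.0, 44.0, 16.3 and 60.6 with vehicle, and rose at least 10.9-fold. Tubb5 rose 1.58-fold and Krt19, a keratin, 3.41-fold. Camsap3, which holds microtubule minus ends, had 56.0 with gamendazole and 177.7 with lonidamine, against 231.2 to 299.0 with vehicle, and fell by 1.44 on the log2 scale. With the lonidamine array alone 0 of the 16 passed (limma), and with the run as a block 1, Krt19.

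**Figure D3:**
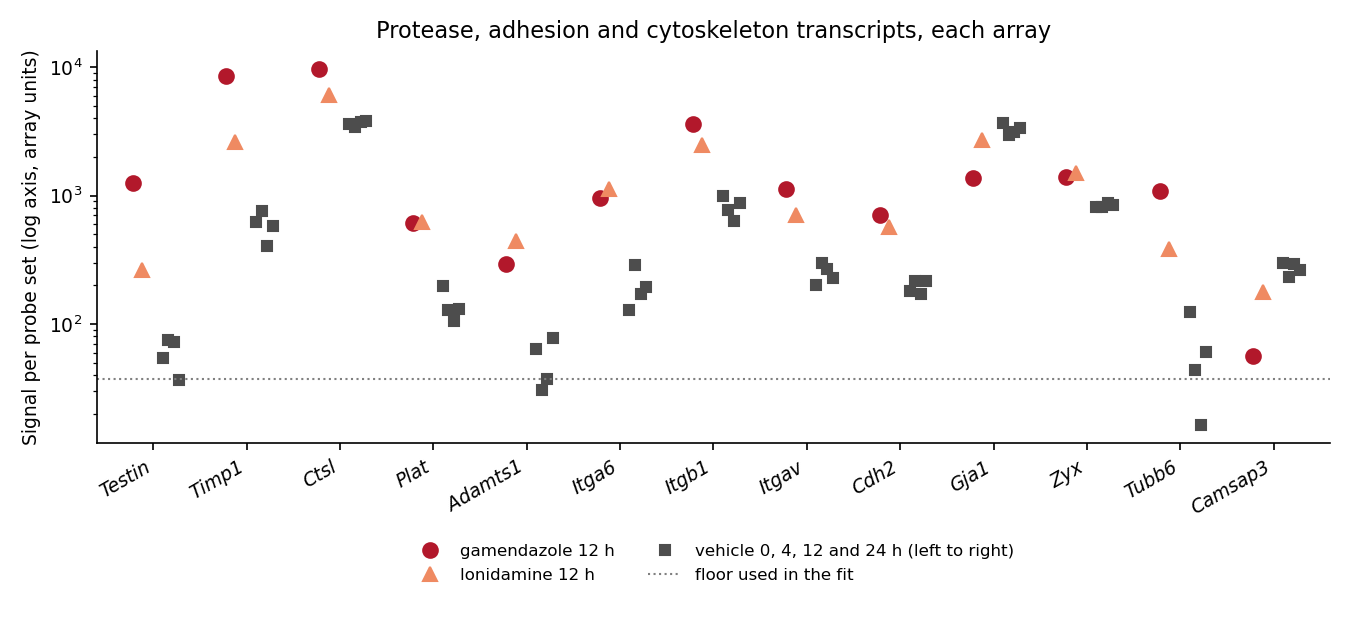
Signal of each array on a log axis for 13 protease, adhesion and cytoskeleton genes, with symbols as in the plot of cytokine signals. Both drug arrays lie above all vehicle arrays for 11 of the genes and below them for Gja1 and Camsap3, and gamendazole lies well above lonidamine for Testin, Timp1 and Tubb6.

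Sertoli cell hormones were tested in a list of inhibin, activin and growth factor genes, of which 2 of 12 rose and 0 fell. That is 16.7% higher, beside 4.65% of all tested genes. Follistatin (Fst), which binds and inactivates activin, had 359.5 with gamendazole and 289.1 with lonidamine, against 107.6, 71.1, 102.9 and 87.5 with vehicle (3.54-fold, log2 1.82 ± 0.27, adjusted p = 0.00242). Tgfb3, which loosens Sertoli cell junctions, rose 2.12-fold. Neither passed with the run as a block (adjusted p = 0.205 for Fst). The inhibin alpha subunit Inha had 1352.7 and 1430.4 with the drugs, against 943.6 to 1207.3 with vehicle, and did not pass (log2 0.40 ± 0.11, adjusted p = 0.0635). The beta B subunit Inhbb had 149.1 with gamendazole and 427.8 with lonidamine, against 492.2 to 510.3 with vehicle. Both arrays were below all vehicle arrays, by very different amounts, and it did not pass (log2 -0.99 ± 0.31, adjusted p = 0.0868).

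Tubule cell markers are given by list, beside 4.65% of all tested genes higher and 1.65% lower. Of 13 tested Sertoli cell markers only Ctsl passed, upward (median 0.25): Clu differed by 0.09 ± 0.05, Wt1 by 0.25 ± 0.12 and Gata4 by 0.40 ± 0.13. Of 16 tested elongating spermatid markers 0 rose and 1 fell, the sheath protein Akap4 by 0.18 on the log2 scale (median -0.08, which was 0.064 under cyclic loess). The Akap4 call was lost in 11 of 18 alternatives, quantile and cyclic loess scaling among them. Of 9 meiotic markers 1 fell, the sperm lactate dehydrogenase Ldhc by 0.14, which was 0.0059 and did not pass under cyclic loess scaling (list median -0.14), and of 6 round spermatid markers 0 passed (median -0.08). Among 6 genes of the spermatogonia list, the transcription factor Dmrt1 fell by 0.70 on the log2 scale, and Itga6, given above, was higher. The Dmrt1 call was lost in 11 of 17 alternatives, and whole-testis RNA does not assign it to a cell type. Of 9 peritubular and smooth muscle markers 0 passed. None of these marker genes passed with the run as a block (limma).

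Leydig cells convert cholesterol to testosterone in steps under the control of luteinising hormone. Of 13 tested Leydig cell markers 3 fell and 1 rose (median -0.20), against 1.65% of all tested genes lower: 2 enzymes of the conversion and the hormone's receptor. Cyp17a1, which makes the androgen precursors, had 393.2 with gamendazole and 433.8 with lonidamine, against 1174.3, 1314.5, 1276.1 and 1269.0 with vehicle. The drug arrays were close to each other and 3.04-fold below the vehicle arrays (log2 -1.61 ± 0.10, adjusted p = 1.13e-05). Cyp17a1 was also the 1 gene of the list lower with the run as a block.

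Cyp11a1, the first enzyme of steroid synthesis, had 871.4 and 843.2 with gamendazole and lonidamine, against 2219.1, 1637.0, 1598.0 and 1860.7 with vehicle, and was 2.12-fold lower (log2 -1.08 ± 0.13, adjusted p = 0.000481). Lhcgr, the receptor of luteinising hormone, had 132.2 and 201.6, against 650.8, 496.5, 465.2 and 675.3 with vehicle, and was 3.46-fold lower (log2 -1.79 ± 0.21, adjusted p = 0.000539). None of the drug signals of these genes reached the vehicle range. A second probe set of Lhcgr differed by -0.94 and did not pass.

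Other genes of the pathway did not pass. Star, which carries cholesterol into mitochondria, had 1852.0 with gamendazole and 713.0 with lonidamine, against 918.9 to 1188.1 with vehicle, so that the drugs lay on opposite sides of vehicle (log2 0.08 ± 0.27, adjusted p = 0.914). The lipoprotein receptor Scarb1 showed the same arrangement, with 650.9 and 327.5, against 364.7 to 527.6 with vehicle. Hsd3b1 had 2876.4 and 2672.9 with the drugs, within the vehicle range of 2521.5 to 3706.5. Hsd17b3, the enzyme of the last step to testosterone, had 52.6 and 66.7 with gamendazole and lonidamine, against 129.3, 53.3, 151.2 and 118.0 with vehicle; the groups overlap, and it did not pass (log2 -0.83 ± 0.45, adjusted p = 0.334). Insl3, the peptide hormone of mature Leydig cells, had 1253.2 and 1409.8, against 1398.3 to 2545.7 with vehicle, and did not pass (log2 -0.41 ± 0.18, adjusted p = 0.234).

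Akr1c14, which inactivates dihydrotestosterone, was the marker that rose: 239.1 with gamendazole and 308.4 with lonidamine, against 122.6, 98.8, 133.5 and 152.6 with vehicle (2.17-fold, log2 1.11 ± 0.25, adjusted p = 0.025). Hsd11b1, which interconverts glucocorticoids, differed by 0.24 ± 0.15 with overlapping groups. The summed signal of the 13 Leydig markers was 17910 with gamendazole and 14700 with lonidamine, against 15230 to 19510 with vehicle, so that the lonidamine array lay below the vehicle range and the gamendazole array within it.

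**Figure D4:**
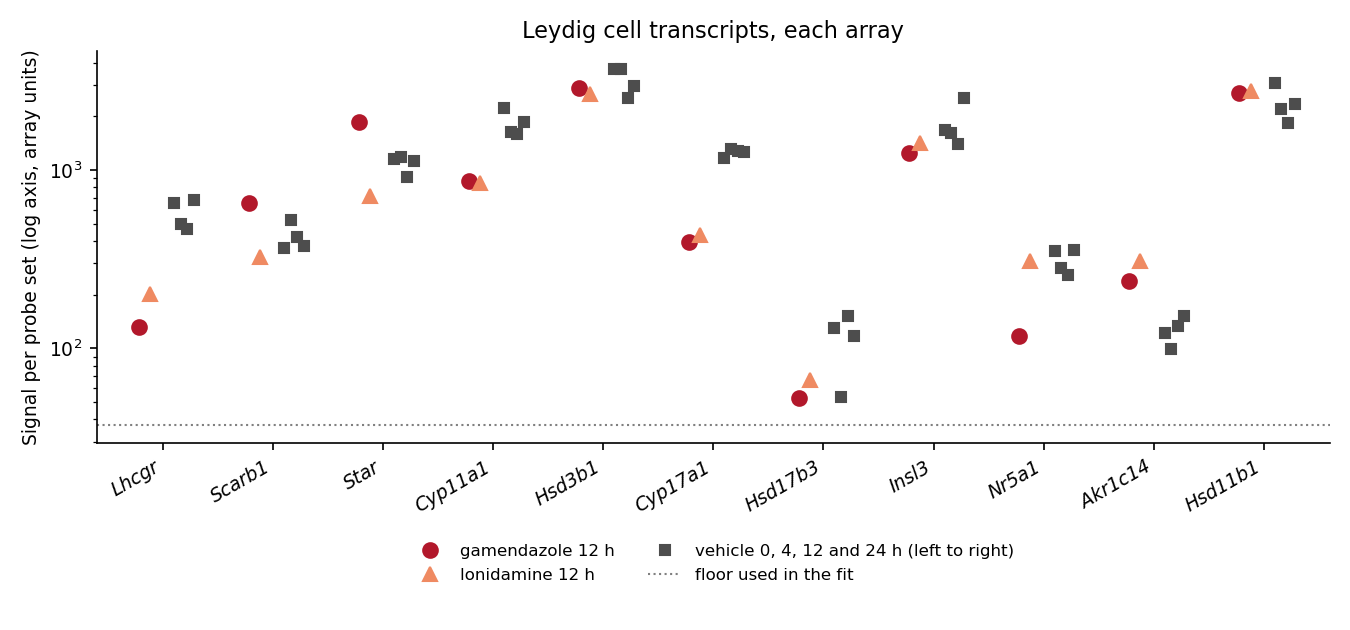
Signal of each array on a log axis for 11 Leydig cell genes, with symbols as in the plot of cytokine signals. Both drug arrays lie below all vehicle arrays for Lhcgr, Cyp11a1 and Cyp17a1 and above them for Akr1c14, while Star and Scarb1 have gamendazole above and lonidamine below the vehicle arrays.

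Among all lowered genes, Nat8f5, of an N-acetyltransferase family, changed most: its signals were 24.3 with gamendazole and 31.8 with lonidamine, against 503.9, 252.5, 276.8 and 379.5 with vehicle. Both drug arrays were under the floor, and it was at least 9.16-fold lower (log2 -3.20 ± 0.30, adjusted p = 0.000109). Hao2, a peroxisomal oxidase, had 769.2 and 1631.6 with gamendazole and lonidamine, against 5463.0, 5018.2, 3108.4 and 4749.0 with vehicle, and was 4.00-fold lower (log2 -2.0 ± 0.26, adjusted p = 0.000959). The desaturase Fads1 was 3.01-fold lower, the fatty acid transport protein Slc27a3 3.00-fold and Crot, the carnitine octanoyltransferase, 2.62-fold.

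Fabp3, a fatty acid binding protein, had 1528.8 and 2233.3 with gamendazole and lonidamine, against 4850.2, 4125.2, 3897.3 and 4126.3 with vehicle (2.29-fold lower, log2 -1.20 ± 0.13, adjusted p = 0.000334). The mitochondrial carriers Slc25a18 and Slc25a45 were 3.04-fold and 3.02-fold lower. Pde9a, which breaks down cyclic GMP, was at least 3.46-fold lower, the clock output factor Dbp at least 3.69-fold, and Mgat4b, a glycosyltransferase of N-glycan branching, 3.00-fold. With the run as a block Fads1, Mgat4b and Cyp17a1 passed and the other lowered genes named here did not.

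Remaining rises among the 20 largest were of mixed function. Wnt4, a secreted signal of gonad development, had 1004.8 with gamendazole and 313.6 with lonidamine, against 3.3 to 14.2 with vehicle, and rose at least 15.1-fold (log2 3.92 ± 0.44, adjusted p = 0.00039). Every vehicle array of Wnt4 was set to the floor, so these values hold no spread between vehicle arrays. Ugdh, which makes the precursor of hyaluronan and glucuronides, had 2781.9 and 2084.5, against 269.4, 231.2, 185.1 and 248.2 with vehicle, and rose 10.4-fold (log2 3.38 ± 0.17, adjusted p = 4.6e-06). Its drug arrays were close and its standard error was small. Plscr1, an interferon-induced membrane protein, rose at least 12.7-fold.

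Stress and metabolic pathways showed scattered changes, given beside 4.65% of all tested genes higher and 1.65% lower. Of 18 tested NRF2 and metallothionein genes 6 rose and 2 fell (median 0.02, which was -0.033 under quantile scaling): the cystine transporter Slc7a11 rose 2.38-fold and haem oxygenase (Hmox1) 1.86-fold, while Nqo1, a standard NRF2 target, had 363.9 with gamendazole and 213.2 with lonidamine, against 249.5 to 313.8 with vehicle. Of 23 ATF4 and unfolded protein response genes 3 rose and 1 fell (median -0.07). Atf4 itself rose 1.97-fold, the arginine transporter Slc7a1 2.40-fold and Xbp1 1.73-fold, and the serine synthesis enzyme Phgdh was 1.97-fold lower. The chaperone Hspa5 differed by -0.02 ± 0.07 and the stress factor Ddit3 by -0.07 ± 0.08. Slc7a11 was the 1 gene of these lists that passed with the run as a block.

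HSP90 and the elongation factor eEF1A are known as binding partners of gamendazole, and their transcripts differed little. Hsp90ab1 had 5890.3 with gamendazole and 5254.7 with lonidamine, against 4696.9 to 5189.7 with vehicle, and did not pass (log2 0.18 ± 0.07, adjusted p = 0.145). Of 22 tested HSP90 and heat shock genes 2 rose (9.09%, beside 4.65% of all tested genes), Hsph1 by 1.51-fold and Hspd1 by 1.28-fold (median 0.04). Eef1a1 differed by -0.07 ± 0.04 and did not pass. Of 7 tested elongation factor genes 1 rose (14.3%), the synthetase-associated Eef1e1, by 1.44-fold.

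The counts of the next lists stand beside 4.65% of all tested genes higher and 1.65% lower. Of 23 tested genes of glycolysis and of glucose and lactate transport 1 rose (4.35%), Pgk1 by 1.67-fold. In that list 1 fell (4.35%), Ldhc, which did not pass under cyclic loess. Of 17 clock genes the repressors Bhlhe40 and Nfil3 rose at least 6.38-fold and 6.14-fold and Dbp fell, while Per1 and Per2 differed by 0.16 ± 0.17 and -0.16 ± 0.17. Of 20 genes of p53 targets, cell cycle and apoptosis 4 rose and 2 fell. The survival gene Bcl2a1 rose at least 7.12-fold, the cell cycle inhibitor Cdkn1a rose 1.57-fold and Cdkn1b was 2.57-fold lower. Of 11 glucocorticoid response genes 2 rose and 1 fell, Tsc22d3 by 0.74 on the log2 scale. Of 17 cholesterol genes 0 rose and 1 fell, the synthesis enzyme Dhcr7, which was 2.33-fold lower. Of 13 prostaglandin and nitric oxide genes 1 rose and 1 fell. The run block left 0 genes past the threshold in the lists of HSP90, elongation factors, glycolysis, clock, p53, glucocorticoid, cholesterol and prostaglandin genes (limma).

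Several genes named as higher or lower by their brightest probe set had another tested probe set that did not pass. Its log2 difference was 1.31 for Il1r1, 0.67 for Jun, 0.61 for Dusp1, 0.38 for Cp, 0.79 for Mmp14, 1.12 for Timp3, 0.60 for Ctnnb1, 0.15 for Tubb5, 0.50 for Hsph1, 0.74 for Cdkn1a and -1.28 for Crot. Akr1c14 had 2 such probe sets, at 1.07 and 0.95. These had the sign of the brightest probe set, and those of Il33, Cxcl12, Gja1 and Lhcgr are given with the gene.

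The 12 h arrays were next set against those of the same drugs at 4 and 24 h, in a fit of all 10 arrays. Relative to the vehicle mean, the 769 probe sets higher at 12 h had medians of 0.42, 0.97 and 1.0 (log2) at 4, 12 and 24 h, and the 229 lower ones had -0.12, -0.63 and -0.45. The 12 h value was the highest of the 3 hours for 344 of the 769 and the lowest for 117 of the 229. Because these probe sets were chosen at 12 h, the medians are a description.

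Between 12 and 4 h, 45 probe sets (0.256%) were higher at 12 h and 11 (0.0627%) lower. All 56 had also passed against vehicle, a comparison that shares the 12 h arrays. The largest rises over 4 h were Wnt4 (log2 3.43 ± 0.47, adjusted p = 0.01), Ccl20 (3.43 ± 0.45, adjusted p = 0.0078) and Plscr1 (3.15 ± 0.38). Wnt4 had 1004.8 and 313.6 with gamendazole and lonidamine at 12 h, against 73.4 and 12.8 at 4 h. Ccl2 was higher at 12 h by 2.81 ± 0.34, with signals of 2656.4 and 1435.3 at 12 h, against 381.2 and 202.8 at 4 h.

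Stat3 (1.40 ± 0.21), Jak2 (1.54 ± 0.23), Il6st (1.15 ± 0.14), Timp1 (2.29 ± 0.39) and Serpina3n (2.31 ± 0.39) were likewise higher at 12 h than at 4 h. The differences of early response genes did not pass: Egr1 differed by 0.03 ± 0.28, Fos by -0.14 ± 0.44, Zfp36 by -0.01 ± 0.33 and Il1a by -0.11 ± 0.31 between 12 and 4 h. Cxcl1 had 1016.3 with gamendazole and 1993.5 with lonidamine at 12 h, against 1708.7 and 787.2 at 4 h, and did not pass either.

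Lower at 12 h than at 4 h were Hao2 (-2.10 ± 0.30), Cyp17a1 (-1.68 ± 0.27), Slc27a3 (-1.50 ± 0.25), Fads1 (-1.42 ± 0.27) and Fabp3 (-1.04 ± 0.15). Cyp17a1 had 393.2 and 433.8 with gamendazole and lonidamine at 12 h, against 1739.2 and 1006.0 at 4 h. The counts between these hours depended on single arrays and on the fit: 0 probe sets passed if the gamendazole 12 h array was left out (limma; 971 at an unadjusted p under 0.05), but without the lonidamine 12 h array 400 did, without the lonidamine 4 h array 28, while with the run as a block or with each hour taken relative to its own vehicle array 0 did (limma; 1331 and 756 at an unadjusted p under 0.05).

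Between 12 and 24 h, 3 probe sets (0.0171%) were higher at 12 h and 0 (0%) lower (limma; 1433 at an unadjusted p under 0.05). The named ones were Cyp17a1 and Fabp3, both below vehicle at 12 h and lower still at 24 h. Cyp17a1 had signals of 393.2 and 433.8 with gamendazole and lonidamine at 12 h, against 5.8 and 69.4 at 24 h, so that the gamendazole array at 24 h was under the floor (log2 3.02, adjusted p = 0.00033). Fabp3 had 1528.8 and 2233.3 at 12 h, against 609.6 and 600.9 at 24 h (log2 1.61, adjusted p = 0.00033).

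Hpx and Serpina3n had higher signals at 24 h than at 12 h on both drugs without passing: Hpx had 3350.5 and 1280.9 with gamendazole and lonidamine at 12 h, against 5796.2 and 6151.1 at 24 h. Egr1 had 969.5 and 1804.4 at 12 h, against 449.6 and 431.2 at 24 h, which did not pass (adjusted p = 0.088). The 12 to 24 h count was 6 without the lonidamine 12 h array, 111 without the gamendazole 12 h array and 12 without the lonidamine 24 h array, and 0 with the run as a block or with each hour relative to its own vehicle array (limma; 674 and 476 at an unadjusted p under 0.05).

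**Figure D5:**
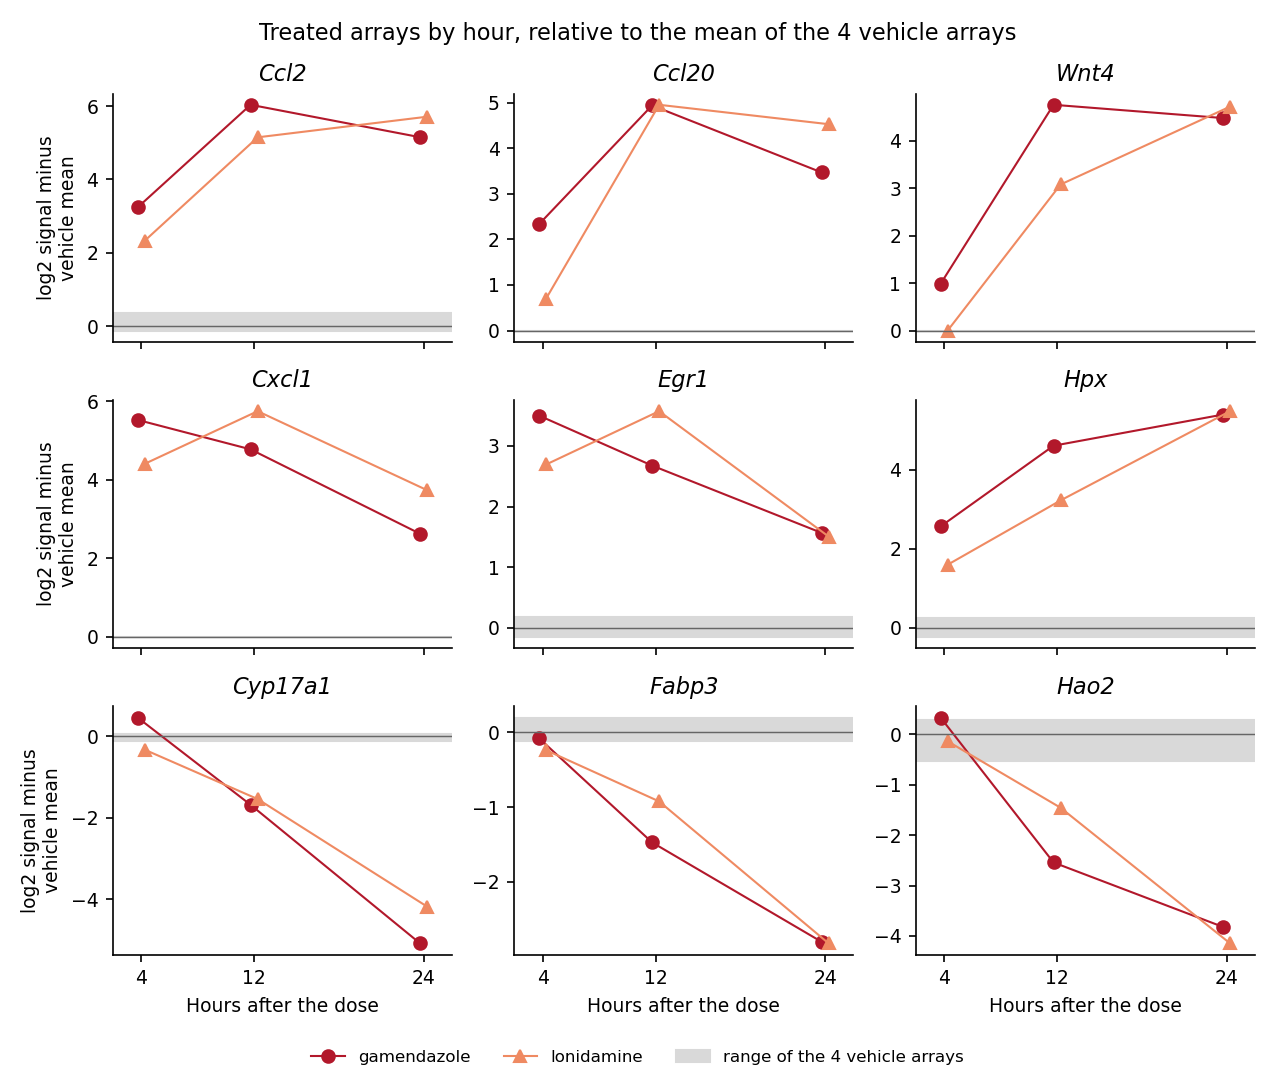
Log2 signal of each drug array minus the mean of the 4 vehicle arrays at 4, 12 and 24 h for 9 genes, with gamendazole as red circles, lonidamine as orange triangles and the range of the vehicle arrays shaded; signals under 37.1 are set to it. Ccl2, Ccl20 and Wnt4 are much higher at 12 h than at 4 h, Cxcl1 and Egr1 are raised at 4 h as well as at 12 h, and Cyp17a1, Fabp3 and Hao2 lie below the vehicle range at 12 and 24 h.

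Taken singly against the 4 vehicle arrays, in a fit whose spread comes from the vehicle arrays alone, the gamendazole array gave 829 higher probe sets (4.72%) and 508 lower (2.89%), and the lonidamine array 184 higher (1.05%) and 27 lower (0.154%). These comparisons share the vehicle arrays, and the doses differ, so values are given side by side and the drugs are not compared by a test. With the run as a block the counts were 29 and 0 (limma; 2843 and 1450 at an unadjusted p under 0.05). Leaving out single vehicle arrays lowered the gamendazole count of 1337 to 641 without the vehicle 12 h array, 745 without the 4 h one and 768 without the 24 h one. It lowered the lonidamine count of 211 to 135, 72, 65 and 61 without the 0, 4, 12 and 24 h arrays.

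Among the 769 higher probe sets the gamendazole difference was the larger in 599 (medians 1.1 for gamendazole and 0.82 for lonidamine), and among the 229 lower ones it was the larger fall in 191 (medians -0.73 and -0.43). These probe sets were chosen on the mean of both drugs, so the counts are a description. The like count over all tested probe sets is not given. Over all probe sets the gamendazole array correlated less with vehicle (r of 0.963 to 0.965) than the lonidamine array (0.973 to 0.976). Genes with the widest gap among those that rose were Testin (log2 4.46 with gamendazole and 2.19 with lonidamine), the iron hormone Hamp (2.75 and 0.82), the membrane glycoprotein Pdpn (3.06 and 1.16) and the amine oxidase Maoa (2.36 and 0.47). Maoa had 3007.3 with gamendazole and 812.4 with lonidamine, against 549.2 to 618.6 with vehicle. Among those that fell, the widest gaps were those of Zcchc18 (-3.46 and -0.73), Crot (-2.28 and -0.50), Camsap3 (-2.27 and -0.61) and Pde9a (-2.59 and -0.99). Zcchc18 had 92.0 with gamendazole and 609.8 with lonidamine, against 968.0 to 1092.7 with vehicle. Chemokines and early genes were mixed: with gamendazole and lonidamine Cxcl1 had 4.78 and 5.75, Egr1 2.67 and 3.57 and Ccl20 4.94 and 4.95, while Ccl2 had 6.04 and 5.15, Cxcl11 4.57 and 3.78 and Atf3 3.33 and 2.36.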

How the data were processed

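RNA of whole rat testis was measured on 10 Affymetrix Rat230_2 arrays, grouped by the treatment and hour in their titles. The deposited values are linear intensities, 1 per probe set and array, made by the authors with GCOS 1.1, per the submitters' processing notes. Their mean after trimming 2% at each end was 500.2 on every array, so each array had been scaled to a common level, which hides any change in total RNA. Of 31099 probe sets 57 controls were left out; of the other 31042, 20826 had 1 gene symbol in the platform annotation, 436 several and 9780 none listed, and only the first were named.

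Intensities were floored at the pooled 25th percentile (37.1) and taken to log2, which shrinks differences of dim probe sets. A probe set was tested if it reached the pooled median (116.2) on at least 2 of the 10 arrays, and 17549 did. Of these, 18 passed only through the drug 12 h arrays. Others, such as Cxcl1 and Ccl20, passed only through drug arrays of several hours. Groups were compared with limma 3.58.1 in R 4.3.3 (moderated variances with a trend on mean level, Benjamini-Hochberg adjustment over all tested probe sets, threshold 0.05). Both drugs against vehicle used 6 arrays and left 4 residual degrees of freedom; each drug alone used the same 6 arrays in 3 groups, and the hours were compared over all 10 arrays. Genes with several probe sets are represented by the brightest, and for called genes the other tested probe sets that did not pass are given. Where an array of the dimmer group was at the floor, the fold change is a lower bound. In 28 tested probe sets all 4 vehicle arrays were at the floor, which leaves no vehicle spread, and 10 of these passed.

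Genes were named as the largest differences in each direction, against vehicle and between hours, and as members of the lists that passed. Others were key genes of the drugs' known biology and those with the widest gap between drugs. The members and lists were chosen with earlier results of these data known. Hybridisation runs were read from the instrument records. Other floors, filters, scalings, variance models, a run block and leaving out each array were tried. Precision is limited by how few arrays there are, with a median 95% interval of ± 0.38 around a log2 difference. No sequences are shown.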

Additional observations from a re-analysis of the deposited data

Results flagged for a closer look

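Among the 4 vehicle arrays, 15 named genes had 1 array far from the other 3, with its gap to the nearest divided by the whole range above Dixon's 95% critical value for 4 samples. The genes looked at were the 153 tested named genes, less those with 2 or more vehicle arrays at the floor. Chance flags about 1 in 20 groups, so some of these flags are likely by chance. The vehicle 0 h array stood low for Tap1 (0.933), Vcl (0.857) and Nectin2 (0.84) and high for Cxcl11 (0.89). The vehicle 4 h array stood low for Il1b (0.95), Slc25a45 (0.843) and Dusp1 (0.841) and high for Lcn2 (0.861), where its signal of 858.8 was set against 232.5 to 278.9 on the others. The vehicle 12 h array stood low for Atf4 (0.989), Lamc1 (0.958), Tgfb3 (0.954), Hbb (0.876) and Fads1 (0.84), and the vehicle 24 h array for Prm1 (0.921) and A2m (0.911).

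Between the drug arrays at 12 and 4 h, 22 named genes passed limma's test of that difference. Some were named because they passed it, and others because they passed at 12 h against vehicle, which shares arrays. The count therefore follows in part from the choice. Of all tested probe sets 0.256% were higher at 12 h and 0.0627% lower. Higher at 12 h on the log2 scale were Wnt4 (3.43), Ccl20 (3.43), Plscr1 (3.15), Ccl2 (2.81), Cxcl11 (2.75), Bcl2a1 (2.64), Gbp7 (2.63), Serpina3n (2.31), Timp1 (2.29), Il33 (2.06), Ugdh (2.04), Tnfrsf1a (1.57), Jak2 (1.54), Stat3 (1.40), Vcam1 (1.28) and Il6st (1.15). Lower at 12 h were Hao2 (-2.10), Cyp17a1 (-1.68), Slc27a3 (-1.50), Fads1 (-1.42), Mgat4b (-1.37) and Fabp3 (-1.04). Between 12 and 24 h, Cyp17a1 (3.02) and Fabp3 (1.61) passed, and both were named in part by that test.

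Some genes had arrays on opposite sides of all vehicle arrays. Vcam1 was above vehicle at 12 h and below it at 4 h on both drugs, a difference of 1.28 that passed as given above. Gja1 was below vehicle at 12 h and above it at 4 h on both drugs, with a difference of -0.96 that did not pass. At 12 h, Star, Scarb1 and Nqo1 had gamendazole above and lonidamine below all vehicle arrays, by 1.38, 0.99 and 0.77 on the log2 scale. The difference between the drugs was not tested.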

How the results depend on the processing

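Of 998 probe sets that differed between both drugs and vehicle, counts under the other settings were 576 with the floor at the 50th percentile, 201 without a filter, 427 without the variance trend, 71 with the run as a block (all 71 among the 998) and 184 with all 10 arrays and that block. Leaving out single arrays gave 192 (without gamendazole 12 h) to 1312 (without lonidamine 12 h). The gamendazole count of 1337 was 789 without the trend, 29 with the run block, and 641 to 974 without single vehicle arrays. The lonidamine count of 211 was 485 and 342 with floors at the 50th and 10th percentile, 593 without a filter, 351 with a filter on the mean, 340 with cyclic loess, 96 without the trend, 0 with the run block (limma; 1450 at an unadjusted p under 0.05), and 61 to 135 without single vehicle arrays. The 12 h minus 4 h count of 56 was 34 without a filter and 34 with the filter at the 75th percentile. It was 0 without the trend, with the run block or with each hour relative to its vehicle array (limma; 1605, 1331 and 756 at an unadjusted p under 0.05), and 0 to 400 without single arrays. The 12 h minus 24 h count of 3 was 11 with the floor at the 50th percentile and 43 without a filter. It was 0 with the run block or with each hour relative to its vehicle array (limma; 674 and 476 at an unadjusted p under 0.05), and 3 to 111 without single arrays. Of 153 named genes 121 passed; 87 of these calls were lost with the run block, 87 without a filter, 61 without the gamendazole 12 h array, 38 with the higher floor, 37 without the trend and 15 to 18 without single vehicle arrays. Ldhc changed sign under cyclic loess, to 0.0059. The calls lost most often were those of Gja1 and Eef1e1, in 12 of 18 alternatives. Those of Hspd1, Maoa, Mrc1, Ldhc and Akap4 were lost in 11 of 18, of Dmrt1 and Pdpn in 11 of 17 and of Il6 in 11 of 16. The causes were not tested. Dim genes are limited by the floor, and small differences by the number of arrays.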
